A study of Rattus norvegicus with 30 samples.

Results

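The arrays described here are those of rat dorsal root ganglia (DRG) at 14 d after resection of the sciatic nerve and at 0 d, 3 arrays at each time. They were chosen by their titles and are 6 of the 30 arrays of the series, of which 15 are of DRG and the others of the nerve itself (SN). The animals were adult male Sprague-Dawley rats of 180 to 220 g, in 5 groups of 6 rats per the labels, with no age in weeks and no genetic change given. A segment of 1 cm was cut out of the left sciatic nerve at mid-thigh, and the ganglia L4 to L6 were collected; the 0 d group is the control, and what surgery its rats had is not stated separately. All groups share the anaesthesia with a mixed narcotic of chloral hydrate, magnesium sulfate and pentobarbital. The study's methods call the nerve arrays of each time point biological replicates. Whether this covers the DRG arrays, and how many rats each array holds, is not stated, so the p-values measure the spread between these arrays. A ganglion also holds neurons whose axons do not run in the sciatic nerve, so cut and uncut neurons were measured together.

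The DRG hold the cell bodies of the sensory neurons, each wrapped in satellite glial cells, beside myelinating Schwann cells, vessels, connective tissue and resident macrophages. After their peripheral axons are cut, the neurons are known to switch on transcription factors, growth-cone proteins and another set of neuropeptides, to lower some channels and transmitter genes of the intact state, and to be approached by macrophages and T cells. The comparison of 14 d with 0 d shows how far such gene groups differed from those of the 0 d ganglia 2 weeks after the lesion.

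RNA was labelled with Cy3 and hybridized to one-colour Agilent rat arrays. Values are given as the normalized signal, the log2 of a probe's processed intensity minus the array's 75th percentile, so that 0 is the level of a probe at that percentile. The scanner program marked 26941 to 32602 probes as well above background on an array of 0 d, and 33755 to 35573 on an array of 14 d. Across the tested probes Pearson's r between arrays was 0.986 to 0.991 within 0 d, 0.990 to 0.993 within 14 d and 0.965 to 0.978 between the times, as a description over probes that share arrays. All 0 d arrays were scanned on another day and on other slides than all 14 d arrays, so scan day and time after resection cannot be told apart. Calls were made in a limma fit, by an adjusted p under 0.05 (Benjamini-Hochberg, over all 34977 tested probes) together with a fold change over 2. Every adjusted p below is from that fit unless another fit or test is named. Levels are compared between times and not between probes.

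At 14 d, 4554 of the 34977 tested probes were called higher (13.0%) and 161 were called lower (0.460%). The called probes carried the symbols of 1748 genes that rose and 90 that fell, among 12614 symbols tested, and 96.6% of the called probes were higher. Most of the rises lay at the dim end of the arrays. Among the 26683 probes well above background on all 6 arrays, 1352 were called higher (5.07%) and 131 lower (0.491%), whereas among the 8294 dimmer probes 3202 were called higher (38.6%) and 30 lower (0.362%). A probe that was dim at 0 d was tested only if it was bright on all arrays of a later time, which favours rises among the dimmer probes, and with no filter 420 probes were called lower. The median log2 change was 0.04 for the brighter probes and 0.84 for the dimmer ones, and 0.13 over all tested probes. With quantile normalization in place of the percentile, the median of all tested probes was -0.04 and 73.7% of the called probes were higher. With background correction by normexp and quantile normalization together, below called normexp correction, 568 probes were called higher and 105 lower. Every 14 d array lay above every 0 d array for 35.8% of the tested probes and below for 16.1%. The sizes were lopsided also among the brighter probes. Of these, 178 rose by over 2 on the log2 scale, 35 by over 3 and 16 by over 4, but 2 fell by over 2 and 0 by over 3.

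**Figure D1:**
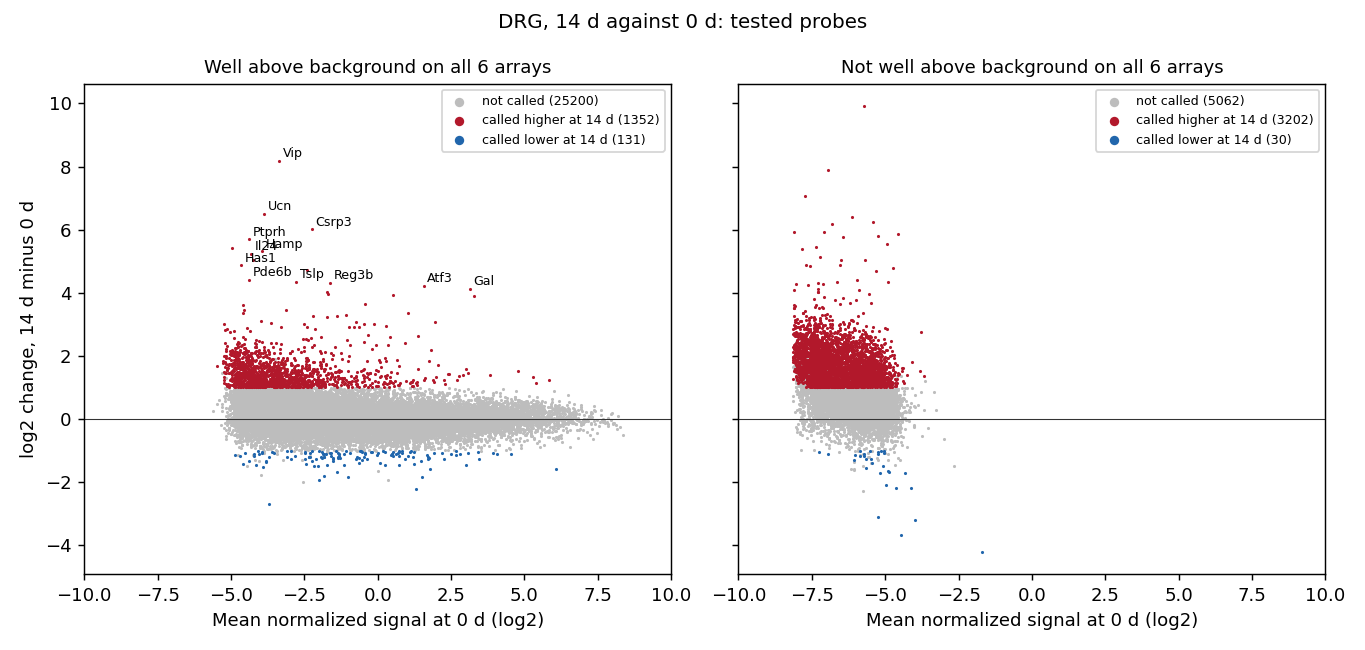
Log2 change from 0 d to 14 d (vertical axis) against the mean normalized signal at 0 d (horizontal axis, log2) for tested probes, split into those well above background on all 6 arrays (left) and the others (right); each point is a probe, red called higher, blue called lower. In the left panel 1352 points are red and 131 blue, and the 12 named rises range from 4.14 to 8.18, while in the right panel 3202 are red and 30 blue.

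The largest rises with 3 arrays well above background at both times were led by peptides. By rule the 12 largest were taken among 515 genes that qualified, those called, bright on all 6 arrays, with no overlap of the times and with a gene symbol. They ran from 8.18 for Vip down to 4.14 for Gal, and Arg1 followed at 3.95. Vip, which encodes vasoactive intestinal peptide, was at -2.97, -4.05 and -3.07 on the 0 d arrays and at 4.92, 4.75 and 4.78 at 14 d. That is a log2 change of 8.18 (SE 0.26, adjusted p = 1.14e-09), or 290-fold. Ucn, which encodes the stress peptide urocortin, was at -3.82, -4.00 and -3.79 at 0 d and at 2.58, 2.78 and 2.56 at 14 d, a 91.1-fold difference (log2 6.51, SE 0.17, adjusted p = 2.39e-10). Gal, which encodes galanin, was already high at 0 d with 3.20, 3.11 and 3.13 and reached 7.37, 7.27 and 7.21, 17.6-fold higher (adjusted p = 1.14e-09). In none of these 3 genes did any 14 d array come near a 0 d array.

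Atf3, the transcription factor most used as a mark of axotomized neurons, was at 1.40, 1.63 and 1.67 at 0 d and at 5.90, 5.74 and 5.74 at 14 d, 18.8-fold higher (log2 4.23, SE 0.12, adjusted p = 5.72e-10). Csrp3, a LIM-domain protein best known from striated muscle, rose 64.6-fold (log2 6.01, SE 0.49). Its 14 d arrays were close together at 3.72, 3.71 and 3.87, but its 0 d arrays lay at -3.73, -0.88 and -2.13. The summed linear signal of 6 skeletal muscle genes was 21.4, 169 and 51.8 on the same 0 d arrays, in the order of Csrp3, and 24.8 to 77.8 at 14 d. Its part in the spread of Csrp3 was not tested. The mean of Csrp3 was 3.78 at 4 d and 3.89 at 7 d.

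The remaining rises encode secreted or cell-surface proteins and enzymes. Hamp, which encodes the iron hormone hepcidin, was at -4.14, -3.94 and -3.76 at 0 d and at 1.08, 1.29 and 1.74 at 14 d, 39.8-fold higher. Reg3b, a secreted lectin of the Reg family, was at -1.86, -1.46 and -1.55 and then at 2.73, 2.54 and 2.84, 20.1-fold higher. Il24 (a cytokine of the interleukin-10 family) rose 37.9-fold, from between -4.46 and -4.10 to between 0.77 and 1.07. For these 3 genes too the arrays of the times lay far apart. Ptprh, a receptor tyrosine phosphatase, was 51.6-fold higher, and Has1, a hyaluronan synthase, 29.3-fold higher. Pde6b, a subunit of the rod phosphodiesterase, was 21.4-fold higher and Tslp, the cytokine thymic stromal lymphopoietin, 20.3-fold higher. All 12 adjusted p-values were at most 4.82e-06, with the weakest for Csrp3, and all 12 genes kept their call with each alternative normalization and with any single array left out. Among tested probes outside the rule, chosen after their values were seen, Crisp3 (a secreted cysteine-rich protein) was at -5.45, -6.45 and -5.26 at 0 d (2 of these 3 well above background) and at 4.34, 4.06 and 4.19 at 14 d, a log2 change of 9.92. No probe had a larger change.

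**Figure D2:**
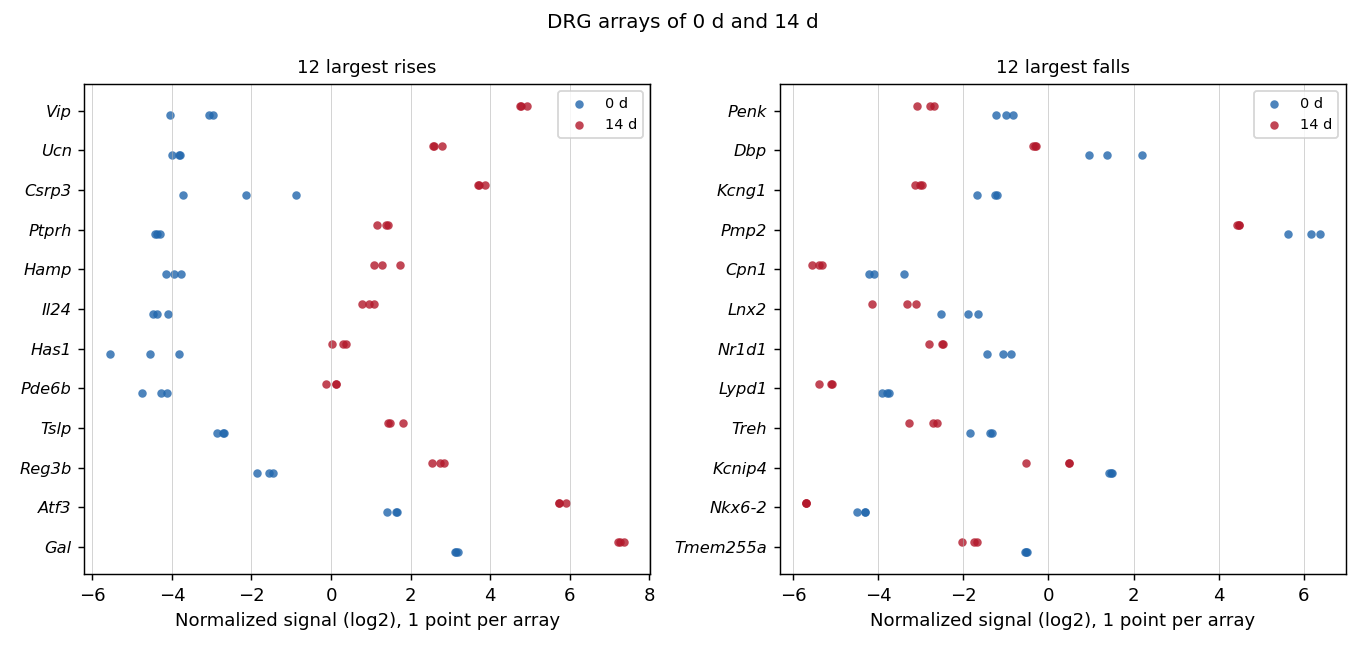
Normalized signal (log2, horizontal axis) of the 12 genes with the largest rises (left) and the 12 with the largest falls (right) on each DRG array of 0 d (blue) and 14 d (red), 1 point per array and 3 per time. By the rule of choice no gene has overlapping times. The rises run from 4.14 (Gal) to 8.18 (Vip), and the 0 d points of Csrp3 spread from -3.73 to -0.88.

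For 9 of the 12 genes that rose a promoter sequence was held, and 6 of the 9 contain 1 of 3 searched motifs in the 250 bases before the start. The motifs are sites known to bind factors of the injury response: the cyclic AMP response element TGACGTCA, the AP-1 element TGANTCA, bound by Jun and Atf3 dimers, and the STAT element TTCNNNGAA, each read on both strands, with N for any base. Of the 6, Il24 and Pde6b are left out, and the promoter sequences of Ucn, Has1, Hamp and Reg3b are shown as examples. They are from RefSeq (assembly GRCr8), 5′ to 3′ in the direction of the gene, and capitals mark the motif matches. The positions are chr6:30957836-30958085 (plus strand) for Ucn, chr1:67378445-67378694 (minus) for Has1, chr1:95300272-95300521 (minus) for Hamp and chr4:112419526-112419775 (plus) for Reg3b.
Ucn promoter: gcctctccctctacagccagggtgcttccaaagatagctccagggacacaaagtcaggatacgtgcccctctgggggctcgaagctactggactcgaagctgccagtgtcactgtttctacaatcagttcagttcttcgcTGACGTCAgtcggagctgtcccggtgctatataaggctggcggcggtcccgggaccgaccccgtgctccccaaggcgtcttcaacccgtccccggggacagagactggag
Has1 promoter: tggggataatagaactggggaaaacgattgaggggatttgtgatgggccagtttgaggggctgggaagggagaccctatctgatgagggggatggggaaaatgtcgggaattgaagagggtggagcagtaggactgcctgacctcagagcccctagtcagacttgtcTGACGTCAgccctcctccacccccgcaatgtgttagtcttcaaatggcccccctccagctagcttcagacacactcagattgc
Hamp promoter: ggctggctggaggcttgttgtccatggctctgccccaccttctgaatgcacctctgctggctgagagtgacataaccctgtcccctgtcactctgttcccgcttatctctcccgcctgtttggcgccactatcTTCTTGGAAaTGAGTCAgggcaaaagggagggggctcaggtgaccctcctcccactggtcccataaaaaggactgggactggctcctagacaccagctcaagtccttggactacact
Reg3b promoter: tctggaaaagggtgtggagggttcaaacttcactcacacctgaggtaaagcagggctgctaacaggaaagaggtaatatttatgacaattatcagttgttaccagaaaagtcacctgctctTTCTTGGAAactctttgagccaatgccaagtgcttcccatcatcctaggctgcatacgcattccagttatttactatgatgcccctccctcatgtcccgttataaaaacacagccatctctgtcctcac
Ucn and Has1 carry the cyclic AMP response element, from -110 to -103 and from -83 to -76 relative to the start. Hamp has a STAT element at -117 to -109 and an AP-1 element at -107 to -101, and Reg3b has the same STAT letters at -129 to -121. Il24 also holds a STAT element and Pde6b an AP-1 element, while Vip, Ptprh and Gal show none of the 3 in this window, and no window was matched for Csrp3, Tslp and Atf3. Of the 6 falling genes with a window, 1 (Dbp) holds a motif. Over all 33469 promoters of the table the shares are 1.59% for the cyclic AMP response element, 6.34% for AP-1 and 7.67% for STAT. For 433 bright genes called higher they are 1.39%, 7.62% and 6.70%, and for 8306 bright genes not called 2.97%, 4.23% and 5.85%. A match is a description of letters and no evidence of binding.

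By the same rule, among 60 genes that qualified, the 12 largest falls were much smaller, between 3.57-fold and 2.45-fold. Penk, the precursor of the opioid enkephalins, was at -1.24, -0.99 and -0.83 at 0 d and at -2.68, -2.80 and -3.10 at 14 d, 3.57-fold lower (log2 -1.83, SE 0.23, adjusted p = 1.10e-04). Pmp2, a lipid-binding protein of peripheral myelin, was at 6.38, 6.17 and 5.64 and then at 4.43, 4.48 and 4.48, 3.02-fold lower (adjusted p = 7.97e-05). That the times do not overlap in these genes is part of the rule, and the 14 d values of Pmp2 were nearly identical. The potassium channel genes Kcng1, a modifying subunit, and Kcnip4, a subunit that binds A-type channels, were 3.17-fold and 2.50-fold lower. Kcnip4 stood at 0.48 and 0.47 on 2 of the 14 d arrays but at -0.52 on the other, and without that array it was at -0.99 and no longer past the fold. Dbp and Nr1d1 are output genes of the circadian clock, 3.55-fold and 2.75-fold lower. Dbp was at 2.20, 0.95 and 1.38 at 0 d and between -0.35 and -0.28 at 14 d. The hour of collection is not stated, and its part in both was not tested. The other falls were Cpn1 (a carboxypeptidase subunit, 2.86-fold), Lnx2 (a ubiquitin ligase, 2.84-fold), Lypd1 (2.59-fold), Treh (trehalase, 2.54-fold), Nkx6-2 (a homeobox factor, 2.50-fold) and Tmem255a (2.45-fold). Cpn1, Lypd1 and Nkx6-2 were under 2-fold after normexp correction.

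In the neuropeptide list, 9 of 24 tested members rose and 1, Penk, fell, beside 13.0% and 0.460% of all tested probes, while the median of the members was 0.01. Besides Vip, Ucn and Gal, the dynorphin precursor Pdyn rose 32.9-fold from between -6.23 and -5.34, 1 of these 3 arrays being well above background, to between -0.74 and -0.43. Npy (neuropeptide Y) was at 2.25, 4.20 and 3.36 at 0 d and at 7.31, 7.14 and 7.05 at 14 d, a log2 change of 3.90 (SE 0.46, adjusted p = 8.89e-05). Its 0 d arrays spread widely, without reaching those of 14 d. Cck (cholecystokinin, log2 2.17), Adcyap1 (the peptide PACAP, 1.85), Nts (neurotensin, 1.85) and the dim Grp also rose. The peptides of the intact nociceptor were not called: Calca, for the peptide CGRP, was at 6.82, 6.90 and 6.89 and then at 6.62, 6.43 and 6.50 (log2 -0.35, adjusted p = 0.0607). The dimmer probes of Calca, also well above background on all 6 arrays, disagreed, at -0.90 (adjusted p = 4.82e-05) and 0.14 (adjusted p = 0.584). Tac1, for substance P, was at -0.69 (adjusted p = 3.16e-04), Sst (somatostatin) at -0.41 and Calcb at -0.39, each short of 2-fold.

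Of 54 tested receptors of peptides and amines 7 rose and 2 fell, with a median of 0.06, so the share that rose was near that of all tested probes. Cckbr, the receptor of gastrin and cholecystokinin, was at -4.49, -5.20 and -4.46 and then at -0.09, 0.18 and 0.14, 27.8-fold higher, with 2 of the 3 arrays of 0 d well above background. Sstr3, a somatostatin receptor, was 12.3-fold higher. Galr3, a galanin receptor, and Htr1f, a serotonin receptor, were not well above background at 0 d on any array, and were at least 2.75-fold and at least 1.42-fold higher. Such bounds set the 14 d mean against the lowest signal well above background on each 0 d array or, where higher, the probe's own signal there. The falls were Mrgprx1, an itch receptor of nociceptors (log2 -1.20, adjusted p = 1.51e-04), and Sstr1 (-1.04). Of these 6 genes Galr3, Htr1f and Sstr1 lost the fold after normexp correction.

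**Figure D3:**
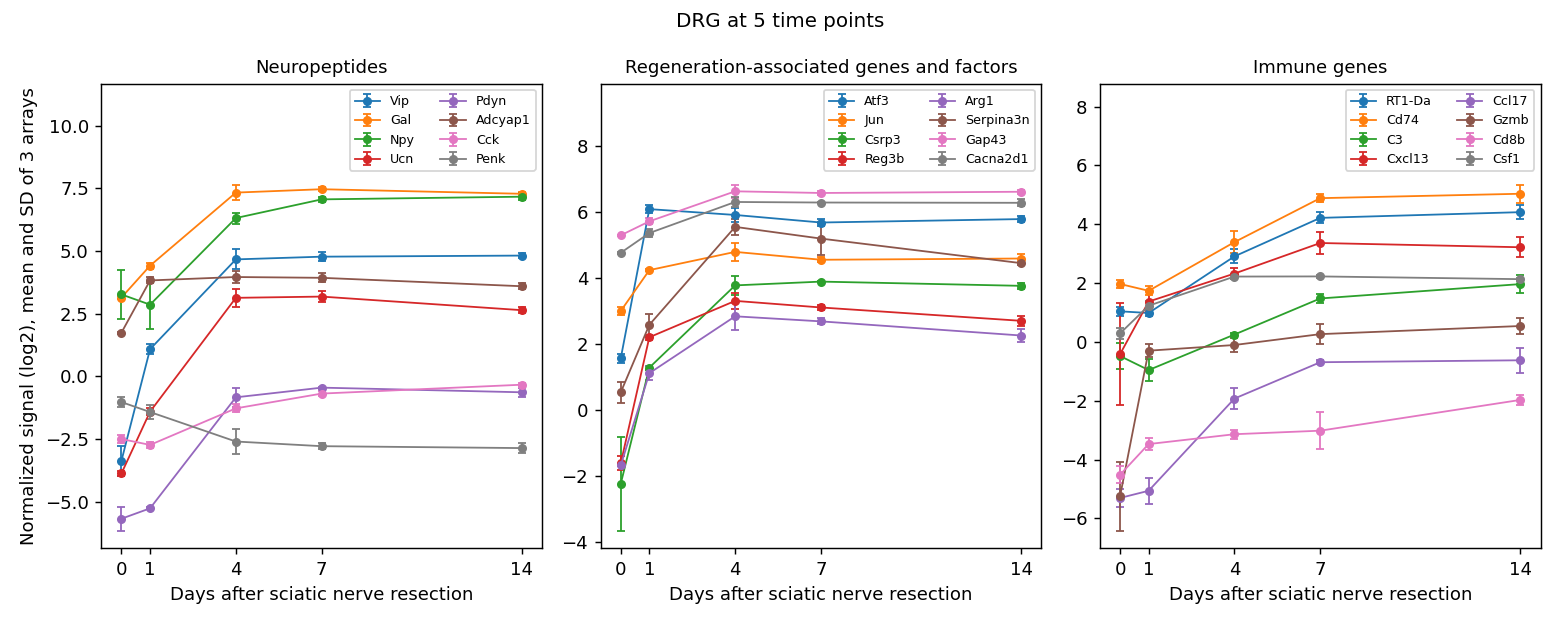
Normalized signal (log2, mean and SD of 3 arrays) of neuropeptides (left), regeneration-associated genes and factors (middle) and immune genes (right) in DRG over the 5 time points of the series (horizontal axis, days after resection). Atf3 is at its 14 d level at 1 d, Vip and Gal reach theirs by 4 d, and RT1-Da, Cd74 and C3 are higher at 7 d than at 4 d.

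In the list of growth-cone and regeneration-associated genes, 14 of 46 rose and 1 fell, with a median of 0.46. Of all tested probes 13.0% rose and 0.460% fell. Tgm1, a transglutaminase, was at -4.80, -4.85 and -5.13 at 0 d and at 0.61, 0.73 and 0.50 at 14 d, 46.5-fold higher. Ecel1, a membrane metalloprotease-like protein of injured neurons, was 20.3-fold higher, and Arg1, the polyamine-pathway arginase, 15.4-fold. For Tgm1 and Ecel1, 2 of the 3 arrays of 0 d were well above background. Gap43, the classical growth-cone protein, was at 5.28, 5.31 and 5.30 and then at 6.70, 6.57 and 6.60, 2.50-fold higher (SE 0.10 on the log2 scale, adjusted p = 1.98e-06). Its arrays of each time lay close together and far from those of the other. Serpina3n (log2 3.92), Flrt3 (2.64), Stmn4 (2.61), Sema6a (2.35) and Gadd45a (2.18) rose as well, and Ncam1, a neural adhesion molecule, fell by 1.06 on the log2 scale. Of 28 injury-induced transcription factors 9 rose and none fell, with a median of 0.65. Ankrd1, a co-factor, rose 8.26-fold and Sox11, a factor of immature neurons, 4.93-fold from a level at which 1 of 3 arrays was well above background, and Sox11 was under 2-fold after normexp correction. Jun was at 2.93, 2.94 and 3.13 and then at 4.75, 4.52 and 4.52 (log2 1.60, adjusted p = 2.95e-06). Stat3, whose protein is activated after axotomy, was at a log2 change of 0.22 (adjusted p = 0.110).

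None of the sensory neuron identity genes was called by limma, in either direction, nor by the methods' t-test or any alternative with the fold threshold. All 35 members were bright on all 6 arrays, so the ganglia carry the markers of their label, and 29 of the 35 had a negative log2 change, with a median of -0.33. Without the fold threshold, a rule added after the values were seen, 17 of the 35 passed the adjusted p as lower and 2 as higher, beside 12.3% and 21.1% of the probes bright on all 6 arrays (9.63% and 28.9% of all tested probes). The synaptic protein gene Snap25 was at 5.66, 5.69 and 5.62 and then at 4.94, 4.89 and 4.68 (log2 -0.82, adjusted p = 4.91e-04). Pvalb, a calcium buffer of proprioceptors, was at -0.81, Isl1, a factor that specifies sensory neurons, at -0.60 and Scn10a, a sodium channel of nociceptors, at -0.50. The neuronal tubulin Tubb3 went the other way, from 6.22, 6.13 and 6.19 to 6.71, 6.78 and 6.79 (log2 0.58, adjusted p = 1.31e-04). Among 27 cytoskeletal genes limma called none (5 passed as higher and 4 as lower without the fold), with the neurofilament genes Nefl, Nefh and Nefm at -0.89, -0.72 and -0.52. The summed linear signal of the identity list was 1235 to 1270 at 0 d and 1012 to 1104 at 14 d. A fall of the sum without overlap was not particular to this list. The sums went from 432 to 436 down to 390 to 413 for satellite glia and from 575 to 653 down to 498 to 550 for Schwann cells. For fibroblasts they went from 533 to 610 down to 482 to 513. Linear sums weigh the brightest members most. Most members of 2 of these lists did not fall: 9 of 21 satellite glia genes were below 0 (median 0.01). Among fibroblast genes 4 of 12 were (median 0.11), against 19 of 25 Schwann cell genes (median -0.28). Endothelial, pericyte, erythroid and skeletal muscle sums overlapped, and those of macrophage and of T and NK cell genes were higher at 14 d. In such bulk samples fewer neurons and less RNA per neuron cannot be told apart.

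Ion channels moved in both directions. Of 30 tested sodium and calcium channel genes 7 rose and 1 fell, beside 13.0% and 0.460% of all tested probes. Cacna2d1, the subunit that binds gabapentin, was at 4.74, 4.78 and 4.79 and then at 6.41, 6.24 and 6.21, 2.87-fold higher (adjusted p = 5.25e-07). Scn3a, a sodium channel of the embryonic nervous system, was at a log2 change of 1.30 (adjusted p = 8.40e-05), and Scn8a, the main channel of nodes of Ranvier, at -1.04. The calcium channel genes Cacna1i, Cacna1e and Cacna1g were 5.26-fold, 3.17-fold and 2.57-fold higher at low signal (1 of 3 arrays of 0 d well above background for Cacna1i and Cacna1g), and none of the 3 reached 2-fold after normexp correction, which left 2 of the 7 rises in the list. Of 74 potassium channel genes 3 rose and 3 fell, with a median of -0.22. 1 of these rises, of 5.99-fold, is of a probe that the array names Kcnd3 but that lies in rn4 at chr3:128922797-128922856, overlapping the probe of Flrt3, so it is not given to the channel gene. Kcna3 fell by 1.01 on the log2 scale, but its other probe, dimmer, was called higher by 1.08. Without the fold threshold 9.63% of all tested probes passed as lower and 28.9% as higher. By the same rule 28 of the 74 potassium channel genes passed as lower and 7 as higher. Of 28 transducer channel genes 13 passed as lower and 5 as higher. In the latter list Asic4 was the member called, 2.18-fold higher with 2 of 3 arrays of 0 d well above background, and it was under 2-fold with quantile normalization.

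Of 49 ionotropic transmitter receptor genes 12 rose and 2 fell, beside 13.0% and 0.460% of all tested probes, but 2 of the 12 were bright on all arrays. The GABA receptor subunit Gabra5 was at -3.63, -3.72 and -3.40 and then at -2.38, -2.19 and -2.09 (log2 1.36, adjusted p = 2.53e-05). The kainate receptor gene Grik1 was between 1.76 and 2.02 at 0 d and between 0.81 and 0.96 at 14 d (log2 -1.06, adjusted p = 1.85e-04). Chrna1, a muscle-type acetylcholine receptor subunit, was 6.88-fold higher, with 1 of the 3 arrays of 0 d well above background. The dim Gabrb2, Chrnb1 and Chrna10 were at least 3.01-fold, 1.70-fold and 1.93-fold higher and lost the fold after normexp correction, as did Gabra5 and Grik1, which left 1 of the 12 rises. Of 44 neurotrophic factors and receptors 9 rose and none fell, beside the same shares of all tested probes. Csf1, which encodes the colony-stimulating factor of macrophages, was at 0.10, 0.28 and 0.48 and then at 2.07, 2.15 and 2.18, 3.59-fold higher (adjusted p = 2.68e-07). Fgf2, a fibroblast growth factor, was at -2.98, -2.98 and -3.04 and then at -0.86, -0.82 and -1.06, 4.24-fold higher. The GDNF family ligands Gdnf, Artn and Pspn rose by 1.30, 1.28 and 1.35 on the log2 scale. A dimmer probe of Artn was not called, at 0.70 (adjusted p = 0.204). Normexp correction left 3 of the 9 rises and not those of Artn and Pspn.

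Macrophage genes were higher as a group, with 19 of 37 called and none lower, 15 of the 19 bright on all arrays, and a median of 1.11. Of all tested probes 13.0% were called higher. Cd74, the chaperone of class II molecules, was at 1.84, 1.98 and 2.09 and then at 4.69, 5.15 and 5.27, 8.38-fold higher (adjusted p = 3.92e-07). The Fc receptor genes Fcgr2b and Fcgr3a were 4.30-fold and 4.28-fold higher, and Cx3cr1, the fractalkine receptor, 3.80-fold higher at low signal (2 of 3 arrays of 0 d well above background, and under 2-fold after normexp correction). Aif1, which encodes Iba1, was at 1.48, 1.81 and 2.46 and then at 3.13, 2.86 and 3.29 (log2 1.18, adjusted p = 1.05e-03). The lysosomal Cd68 and the receptor Csf1r were just short of the fold at 0.99 and 0.96, and Cd163 (-0.11) and C1qb (-0.08) were not called. The summed linear signal of the list was 181 to 237 at 0 d and 315 to 358 at 14 d, without overlap. The 0 d arrays differed in these genes: 25 were called without replicate 3 of 0 d and 16 without replicate 1, and 14 after normexp correction. The methods' t-test with adjusted p called 8.

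Of 29 tested T and NK cell genes 23 rose, with none lower and a median of 1.84. In 26 of the 29 every 14 d array lay above every 0 d array, beside 35.8% of all tested probes. That share is no like comparison, since 19 of the 29 were not bright on all 6 arrays. The filter favours rises among such dimmer probes, and their own share without overlap is not given here. The signal of the list was low, however. Of the 23, 18 were not bright on all 6 arrays, where 38.6% of the tested probes were called higher. The median was 1.17 over the bright members, and after normexp correction 0.61, below the 0.82 of the macrophage genes. Gzmb, which encodes the cytotoxic protease granzyme B, was at -5.66, -6.17 and -3.93 at 0 d and at 0.54, 0.25 and 0.83 at 14 d, 55.4-fold higher (adjusted p = 2.44e-06), with 2 of the 3 arrays of 0 d well above background. Cd8b, a chain of the CD8 co-receptor, was at -4.82, -4.47 and -4.26 and then at -2.08, -2.07 and -1.76 (log2 2.55, adjusted p = 2.97e-05). The chemokine Ccl5, also bright, rose by 1.60 on the log2 scale. Cd8a and the NK receptor gene Klrd1 were not well above background on any 0 d array and at least 2.25-fold and at least 2.59-fold higher, and Cd3e, a chain of the T cell receptor complex, at least 1.1-fold. Gzmk was 6.76-fold higher, 1 of the 3 arrays of 0 d being well above background. Of the bright T cell receptor chains Cd3d was at 0.38 (adjusted p = 0.248), and Lck, the kinase beside it, at 0.44; Cd28 was not well above background on any of the 6 arrays. The summed signal was 2.12 to 3.32 at 0 d and 6.19 to 8.35 at 14 d. After normexp correction 4 members passed the threshold, and with quantile normalization 19.

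**Figure D4:**
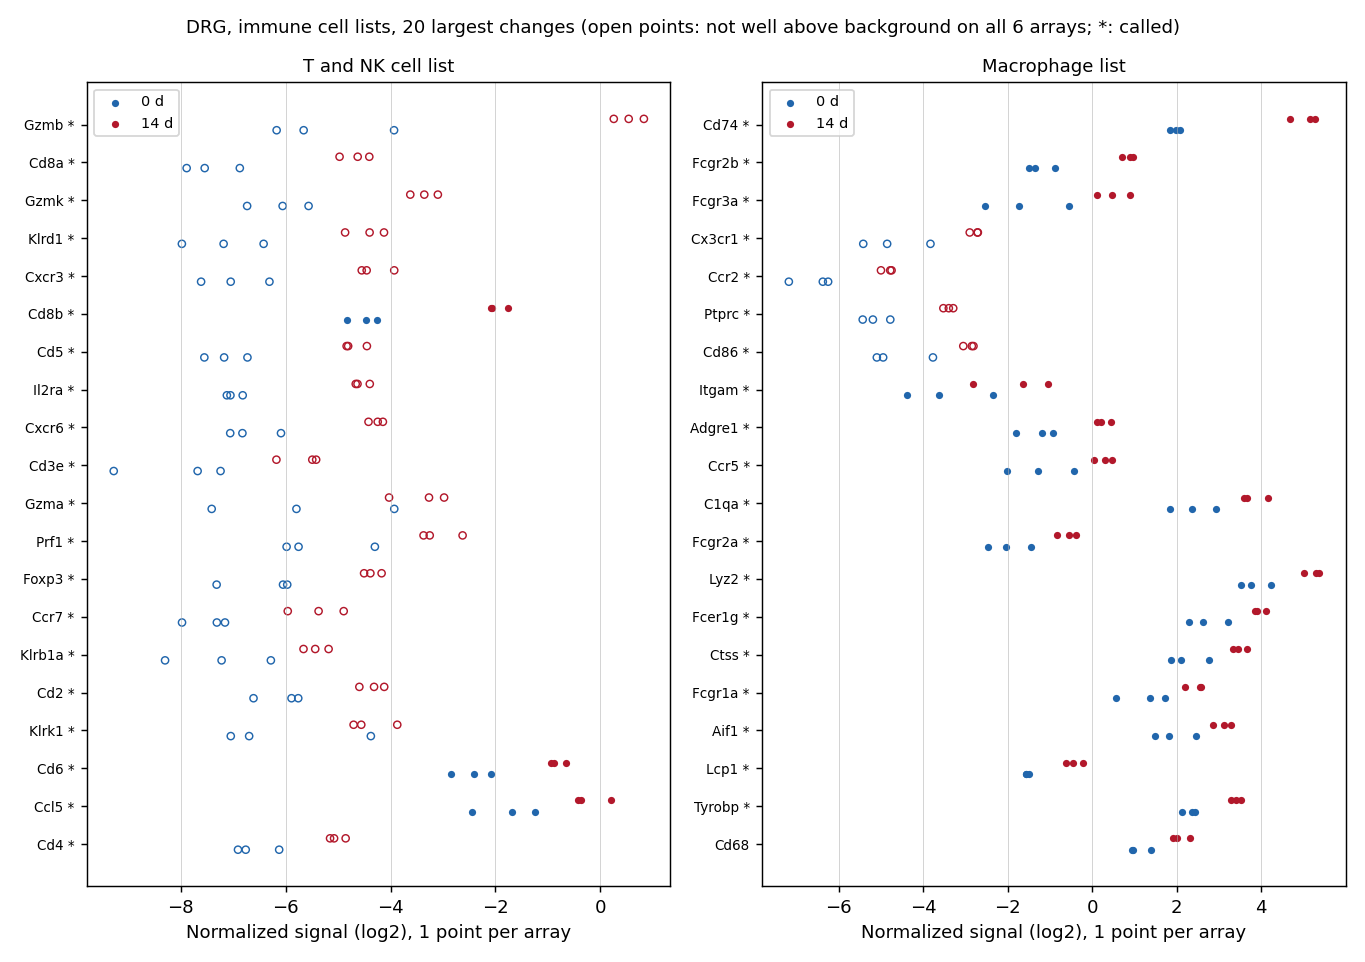
Normalized signal (log2, horizontal axis) of the 20 tested T and NK cell genes (left) and the 20 macrophage genes (right) with the largest log2 change, on each DRG array of 0 d (blue) and 14 d (red); open points are genes not well above background on all 6 arrays, and a star marks called genes. In the left panel all 20 genes carry a star, most with open points below -4 at 0 d, and in the right panel 19 of 20 do, most with filled points.

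Class II antigen presentation led the antigen presentation and interferon list, in which 10 of 40 members rose and none fell, with a median of 0.33. Among all tested probes 13.0% rose and 0.460% fell. RT1-Da, a rat class II chain, was at 0.91, 1.00 and 1.20 and then at 4.18, 4.38 and 4.67, 10.3-fold higher (adjusted p = 3.30e-08), and RT1-Bb was 8.37-fold higher. Of 37 tested cytokine and chemokine genes 19 rose, 1 fell, and the median was 1.07. Of the 19, 9 were not bright on all 6 arrays, where 38.6% of the tested probes were called higher. The median was 0.39 over the bright members. After normexp correction 10 members of this list were called higher, with a median of 0.43. Ccl17, a chemokine for T cells, was at -5.06, -5.20 and -5.65 and then at -0.99, -0.72 and -0.16, 25.6-fold higher, with 1 of the 3 arrays of 0 d well above background. Xcl1, a chemokine of activated T and NK cells, was not well above background on any 0 d array and was at least 20.5-fold higher. Cxcl13, which draws B cells, was 12.4-fold higher, from -2.33, -0.02 and 1.09 to 3.41, 2.82 and 3.42, with the 0 d arrays spread over more than 3 log2 units. Il6 was at least 1.68-fold higher. Ccl2, the monocyte chemokine, was at 0.35 (adjusted p = 0.0605), and Ccl11 fell by 1.12 on the log2 scale. Without replicate 1 of 0 d, 13 members of the cytokine list rose, and 8 by the methods' t-test with adjusted p. Complement genes rose in 7 of 25 cases with a median of 0.57. C3, the central component, was at -0.88, -0.55 and 0.00 and then at 2.10, 1.61 and 2.19, 5.45-fold higher, and C1qa was 2.69-fold higher. This count was 3 without replicate 1 of 0 d and 9 without replicate 3.

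Of 21 satellite glia genes 2 rose, Gfap (2.51-fold) and Sox9 (2.06-fold, 1 of 3 arrays of 0 d well above background), and both were under 2-fold with quantile normalization. Fabp7 was at 0.34 and Glul, glutamine synthetase, at -0.20, neither called. Of 25 Schwann cell and myelin genes 2 rose and 3 fell, among them Pmp2 and the myelin lipid enzyme gene Fa2h (2.29-fold lower). The others of this list leaned downward, with 19 of 25 below 0 and a median of -0.28. Mbp, myelin basic protein, was at -0.96. Without the fold threshold 12 of the 25 passed as lower and 2 as higher, beside 9.63% and 28.9% of all tested probes. In the extracellular matrix list 1 of 48 rose (Thbs1, thrombospondin, with no fold given, since no 0 d array and 2 of 3 at 14 d were well above background) and 2 fell, the laminin binder Nid1 (2.20-fold) and the proteoglycan Bcan (2.12-fold). Limma called no member among the 12 endothelial, 6 pericyte, 12 fibroblast, 5 erythroid and 7 skeletal muscle genes or the 69 genes of oxidative phosphorylation. Without the fold threshold 2, 0, 3, 1, 0 and 5 of these passed as higher and 0, 0, 1, 0, 1 and 6 as lower. Of 37 synaptic release genes Nlgn3 rose by 1.58 on the log2 scale and Vamp1 fell 2.04-fold. Of 29 cholesterol genes Abca1, the cholesterol exporter, rose 2.05-fold. Of 41 cell cycle genes 2 rose, Cdkn1a, the cell cycle inhibitor p21, from 0.07, -0.08 and -0.16 to 2.02, 2.41 and 2.46 (5.11-fold) and the dim Mcm5, while 31 of 41 were below 0 (median -0.32). Fa2h, Thbs1, Nlgn3, Abca1 and Mcm5 were under 2-fold after normexp correction, Abca1 and Nid1 without replicate 3 of 14 d, and Vamp1 without replicate 1 of either time. Small lists of other cells held rises at low signal: 4 of 8 central oligodendrocyte genes (Mog 4.31-fold, with Opalin, Olig1 and Olig2), 4 of 20 neutrophil and mast cell genes (9 without replicate 1 of 0 d), 2 of 5 adipocyte genes (Cidec and Plin) and 1 of 7 B cell genes (Mzb1). After normexp correction 1, 1, 0 and 0 of these rises were left. Beside 13.0% of all tested probes and 38.6% of the dimmer ones, counts in lists this small are no result about the members. The summed signal of these 4 lists overlapped between 0 d and 14 d.

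**Figure D5:**
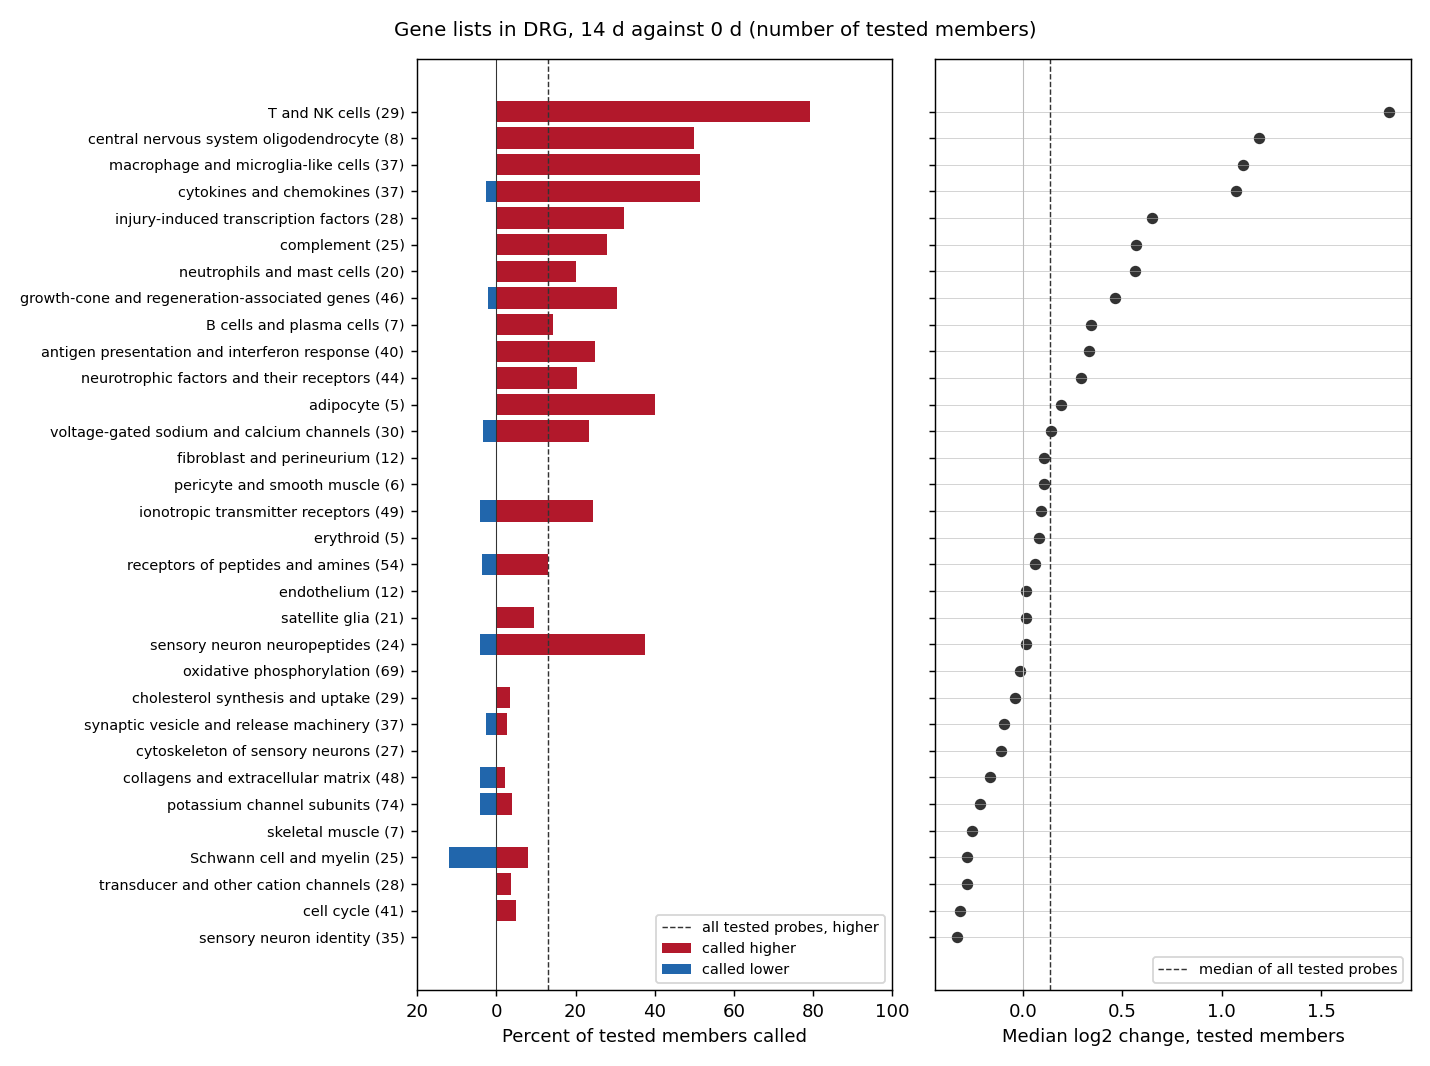
Left, percent of tested members of each of 32 gene lists called higher (red, to the right) or lower (blue, to the left) at 14 d against 0 d in DRG, with the share of all tested probes called higher, 13.0%, as a dashed line; right, the median log2 change of each list's tested members, with the 0.13 of all tested probes as a dashed line. With percentile scaling the medians run from -0.33 (sensory neuron identity, no member called) to 1.84 (T and NK cells), but with quantile normalization potassium channels (-0.46) and cell cycle genes (-0.45) lie below the identity genes (-0.41), and after normexp correction macrophage genes (0.82) above T and NK cells (0.61).

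Against 7 d, the previous time point, 11 probes were called higher at 14 d (0.0314%) and 23 lower (0.0658%), with 16 genes named among them. Hamp was the member of the 12 largest rises that differed, with means of 3.06 at 4 d, 2.60 at 7 d and 1.37 at 14 d, and it fell by 1.23 on the log2 scale from 7 d to 14 d (adjusted p = 0.0210). Nr1d1 fell by 1.37 in the same interval, having been at -1.23 at 7 d. Atf3 stood at 6.10 at 1 d against 5.79 at 14 d, and Vip at 1.09 at 1 d and 4.82 at 14 d, with 4.67 on day 4. Of the 1352 bright probes called higher at 14 d, the mean was more than 2-fold above that of 0 d for 428 at 1 d, 512 at 4 d and 605 at 7 d, and of the 131 called lower, more than 2-fold below for 14, 72 and 51. These counts share the 0 d arrays. The 7 d group spans 2 scan days, and without its replicate 1, which was scanned apart from the 14 d arrays, 622 probes were called higher against 7 d. Limma called no probe without replicate 2 or without replicate 3 of 7 d, where 2353 and 2616 were higher and 1463 and 1587 lower at an unadjusted p under 0.05, and no probe was called lower without replicate 1 or replicate 3 of 14 d.

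Whether the ganglion and the nerve stump changed alike was tested by the interaction in a limma fit on all 30 arrays. Of 33806 probes tested in both, 6547 had a more positive change in DRG (19.4%) and 4354 a more negative one (12.9%). These counts are by an adjusted p under 0.05 with no fold threshold. Of the 24 genes with the largest rises and falls, 22 were tested in both tissues and 17 differed at an adjusted p under 0.05. They were chosen by the same DRG change that enters this difference, so their count is not read against those shares. Vip changed by 8.18 in DRG and by -1.84 in SN, and Gal by 4.14 and -1.67. Ucn changed by 6.51 and 1.07, and Atf3 by 4.23 and 0.36. In the other direction Penk changed by -1.83 in DRG and 1.70 in SN, Kcng1 by -1.66 and 2.75, and Lypd1 by -1.37 and 1.76. The part of dim signal in these SN changes was not tested. Reg3b rose in both, by 4.33 and 3.19, and Pmp2 fell in both, by 1.60 and 2.41 on the log2 scale. Csrp3 (adjusted p = 0.111), Dbp, Lnx2, Nr1d1 and Kcnip4 did not pass the test of the difference. With slide as a fixed block 14 of the 17 still passed, not Reg3b, Kcng1 and Pmp2. Among the 66 further genes named from the lists, which were also chosen by their DRG change, 65 were tested in both and 29 differed, 24 with a more positive change in DRG and 5 with a more negative one.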

How the data were processed

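Per the file headers, the deposited intensity of each spot was read with Agilent Feature Extraction, which subtracted the background and detrended the array, with no normalization between arrays. The log2 values in the table the authors deposited have the same distribution on all 30 arrays and served as an alternative. Probes are those of build rn4, and 16421 of 17490 RefSeq accessions matched the gene table of GRCr8, used for names. Here control spots and spots marked as outliers were left out (386 probe values missing in DRG), log2 values of 1 probe were averaged, and each array's 75th percentile over 41012 probes was subtracted. A probe was tested when all 3 arrays of any DRG time point showed it well above background, with limma 3.58.1 (statmod 1.5.0, R 4.3.3) on the 15 DRG arrays, which share 1 estimate of the spread. No spot was saturated, and 3 arrays per group limit the precision. A gene is given by its brightest probe. Of 90 named genes 21 have another tested probe, in 13 every other probe was called alike, and in 1 (Kcna3) another was called the opposite way.

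Named were the 12 largest rises and falls as described, and up to 4 called members with the largest change from each of 32 lists (908 distinct genes tested, 159 higher and 16 lower), with defining members given as values; other members named beside them were picked after their values were seen. Members and lists were chosen with earlier results of these data known. Some members that enter the counts are not reported here by name. Lists are described by counts and medians without a test. Alternatives were the methods' t-test, normexp (offset 50) with quantile normalization, quantile normalization alone, the deposited log2 table, other filters and percentiles, slide as a random block, the replicate number as a block and leaving out each array. Scripts were tested on simulated data. The replicate numbers were not taken as pairs: the deviations of same-numbered 0 d and 14 d arrays correlated at 0.00135, 0.00818 and 0.0102.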

Additional observations from a re-analysis of the deposited data

Results flagged for a closer look

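Of the 24 genes with the largest rises and falls 22 were tested in both tissues, and for 17 of the 22 the change from 0 d to 14 d differed between DRG and SN by the interaction test. The genes were chosen by the same DRG change that enters the difference, so the count is not read against the share of all probes. The log2 change in DRG minus that in SN was 10.02 for Vip, 5.81 for Gal, 5.44 for Ucn, 5.33 for Il24, 5.01 for Ptprh and 4.61 for Hamp. It was 3.87 for Atf3, 3.85 for Tslp, 2.64 for Has1, 1.61 for Treh, 1.13 for Reg3b and 0.81 for Pmp2. It was -4.41 for Kcng1, -3.54 for Penk, -3.13 for Lypd1, -2.48 for Tmem255a and -1.32 for Nkx6-2. For Vip and Gal the nerve went down while the ganglion went up. For Penk, Kcng1, Lypd1 and Tmem255a the nerve went up while the ganglion went down. Over all arrays of both tissues the mean signal was -4.11 for Kcng1, -5.24 for Lypd1 and -2.76 for Tmem255a. Over the DRG arrays of 0 d and 14 d it was higher, at -2.21, -4.51 and -1.18. For Penk it was -1.23 over all arrays and lower, at -1.94, over those DRG arrays. Levels in the nerve alone are not given here, and the part of dim signal in the nerve changes was not tested. The 0 d and 14 d arrays of both tissues differ in scan day, and the part of the slide was followed by a block, under which Reg3b, Kcng1 and Pmp2 did not pass.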

How the results depend on the processing

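The number of probes called higher at 14 d (4554) was 568 with normexp correction and quantile normalization, 2427 with quantile normalization alone, 2443 with the deposited log2 table, 2990 by the methods' t-test with adjusted p and 1357 when all 6 arrays had to be well above background. The number called lower (161) was 105, 868 and 906 with the first 3 of these and 420 with no filter on dim probes. The share that was higher (96.6%) was then 84.4%, 73.7% and 72.9%, and 91.5% with no filter and 91% with all 6 arrays bright. Without the fold threshold, chosen after seeing the data, 10110 were higher and 3370 lower (75% higher). Leaving out 1 array gave 3890 to 4553 higher, 144 to 243 lower (243 without replicate 1 of 0 d) and shares of 94.6% to 96.5%. The normexp calls shared 562 rises and 96 falls with those reported.

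Against 7 d, 6 probes were higher with no filter on dim probes, and 75 and 65 were lower with the deposited table and with quantile normalization. Leaving out 1 array gave 0 to 622 higher and 0 to 28 lower. With the replicate block, added after seeing the data, limma called 0 higher and 0 lower (4267 and 1807 at an unadjusted p under 0.05). For 7 d and 14 d the deviations of same-numbered arrays correlated at -0.135, 0.084 and -0.180. For 0 d and 14 d, 0 of 3 arrays of 0 d correlated best with the 14 d array of their number. So few arrays cannot settle whether the numbers mark a block. With the replicate block 3912 probes were higher and 132 lower against 0 d. For DRG minus SN, slide as a fixed block, also added later, gave 3308 more positive, and leaving out 1 array gave 5571 to 7249 more positive and 3746 to 4447 more negative. Of the named genes Cxcr2, a dim chemokine receptor, changed sign, at -0.028 after normexp correction against 1.08. Over all gene values and alternatives 1388 kept direction and call, 104 lost the call and 1 reversed; 37 of the losses came with normexp correction and quantile normalization together and 11 with quantile normalization alone. The cause was not tested. Dim probes limit what these arrays show: the level at 0 d of 8294 tested probes, or their level at 14 d, is near background on at least 1 array.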
